A study of Mus musculus with 8 samples.

Results

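The miR-146 family was followed through its mature 5p members in mouse kidney, mmu-miR-146a-5p and mmu-miR-146b-5p. They were taken as the non-control array spots annotated to these names, and are 2 of the 1881 miRNAs on the array. MicroRNAs were measured on 8 Agilent 1-colour arrays of kidney tissue, 4 from a sham group and 4 from a lipopolysaccharide (LPS) group that models septic acute kidney injury. Mice of the LPS group received LPS, the endotoxin of Gram-negative bacteria, intraperitoneally at a body-weight dose of 10 µg per g. Mice of the sham group received an equal dose of normal saline. Kidneys were taken after 24 h in the LPS group, RNA was extracted from 30 mg of tissue, and 100 ng of total RNA was labelled with Cy3 for each array. Strain, age and sex are not given in the sources used here. Samples are numbered sham 5, 6, 7 and 8 and LPS 6, 10, 11 and 12, and the labels do not say that each is a separate animal, so p-values measure only the spread between these samples, which may be technical.

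LPS is sensed by TLR4, whose adaptor proteins pass the signal through the kinase IRAK1 and the ubiquitin ligase TRAF6 to the transcription factor NF-kB. Transcription of miR-146a is switched on by NF-kB, and the mature miRNA lowers IRAK1 and TRAF6, which makes it a negative feedback regulator of innate immune signalling. MiR-146b is encoded by a separate gene, carries the same seed and is likewise described as induced by inflammatory signals, by NF-kB and by cytokine-activated STAT3. Both are expressed in leukocytes and can also be expressed by epithelial and endothelial cells, which an extract of kidney tissue mixes. In such bulk tissue, fewer cells of a type and less RNA per cell cannot be told apart.

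The mature sequences are shown because the probes can tell the paralogs apart only by bases 18 and 21. In the first pair of lines the seed, bases 2 to 8 from the 5′ end, is in capitals, and in the second pair the bases that differ between the paralogs are.
mmu-miR-146a-5p, seed: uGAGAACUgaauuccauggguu
mmu-miR-146b-5p, seed: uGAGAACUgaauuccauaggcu
mmu-miR-146a-5p, differences: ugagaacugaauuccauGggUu
mmu-miR-146b-5p, differences: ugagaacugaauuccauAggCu
Sequences are from RefSeq (GRCm38.p6 table), matched by name. Both miRNAs are 22 bases long, share 20 bases, and are identical over their first 17. The differences are G18A and U21C, with the base of miR-146a first, its position counted from the 5′ end, and the base of miR-146b last. Of the 1881 miRNAs on the array 1608 had a RefSeq sequence, and among these the seed GAGAACU was held by the 2 paralogs and no other miRNA.

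Each paralog was read by a 19-base and an 18-base probe with 15 spots apiece on every array. The probes are shown because specificity rests on the bases in capitals, which would mismatch the other paralog. Whether a probe also binds the other paralog was not tested, and such binding would matter most for the dim miR-146b signal.
miR-146a 19-base probe: aAccCatggaattcagttc
miR-146a 18-base probe: aAccCatggaattcagtt
miR-146b 19-base probe: aGccTatggaattcagttc
miR-146b 18-base probe: aGccTatggaattcagtt
The 19-base probes are complementary to bases 4 to 22 of their miRNA and the 18-base probes to bases 5 to 22. Against the other paralog each probe has 2 mismatches. This leaves 17 matching bases and a longest matching run of 14 for the 19-base probes, and 16 and 13 for the 18-base probes. The files list the miR-146a probes at chr11:43187908-43187925 and chr11:43187909-43187925 and the miR-146b probes at chr19:46417284-46417301 and chr19:46417285-46417301 (mm9). The intervals are given as listed and are 1 base shorter than the probes. In the RefSeq gene order (GRCm38.p6), Mir146 overlaps no other gene and lies between Atp10b and Gm5782, with Pttg1 next after the latter. Mir146b lies within the long non-coding RNA gene Gm36493, near Cuedc2, Fbxl15, Psd and Nfkb2, the last of which encodes an NF-kB subunit precursor.

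The arrays were alike in quality. The number of miRNAs detected ranged from 336 to 375 on the sham arrays and from 342 to 359 on the LPS arrays. Spots well above background made up 15.8% to 17.5% of an array. Across miRNAs, which are not independent replicates, the lowest correlation of 2 arrays was 0.989 within a group and 0.959 between the groups. All arrays lay on 1 slide, with the sham arrays in row 1 and the LPS arrays in row 2, so group and slide row cannot be told apart. Of 338 miRNAs tested, 136 (40.2%) passed limma's test at a Benjamini-Hochberg adjusted p below 0.05, 50 (14.8%) higher and 86 (25.4%) lower in LPS kidneys.

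MiR-146b-5p rose after LPS and the change in miR-146a-5p did not pass the test. A level here is the log2 of a miRNA's signal over the array's 75th-percentile signal, taken over probes detected throughout, so 0 marks a miRNA as bright as that percentile. Levels of different miRNAs depend on how each probe hybridises, so only differences between groups, not levels, are set against each other.

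MiR-146a-5p was detected on all 8 arrays, that is, over 50% of the spots of at least 1 of its probes were well above background. Its log2 level was -0.28 in sham replicate 5, -0.62 in replicate 6, -0.63 in replicate 7 and -0.55 in replicate 8. In LPS replicates 6, 10, 11 and 12 the level was -0.37, -0.18, -0.40 and -0.41. The groups overlapped, because sham replicate 5 lay above every LPS array except replicate 10, while all 4 LPS arrays lay above the sham median. As a share of the 75th-percentile signal these levels are 64.4% to 82.6% in sham and 75.3% to 88.1% in LPS kidneys. The group means were -0.52 ± 0.17 and -0.34 ± 0.11 (SD, n = 4 per group). The difference of 0.18 ± 0.09 log2 units (SE, 95% interval -0.04 to 0.39) is 1.13-fold and did not pass limma's test (Benjamini-Hochberg adjusted p = 0.166). The interval of the fold, 0.974 to 1.31, covers both no change and a rise of that upper size. Without sham replicate 5 the difference was 0.27 ± 0.07 and passed the test (limma adjusted p = 0.0205), so this array decides the call.

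MiR-146b-5p had log2 levels of -4.12, -4.29, -4.41 and -4.33 in sham replicates 5, 6, 7 and 8. In LPS replicates 6, 10, 11 and 12 the levels were -3.09, -3.10, -3.42 and -3.20. Every LPS array lay above every sham array, a pattern shown by 41 of the 338 miRNAs tested (12.1%), while 125 (37.0%) did not overlap in either direction. The miRNA was near the limit of detection in sham kidneys: it was detected on sham replicates 5 and 8 but not on 6 and 7, and on all 4 LPS arrays. Its signal was 4.70% to 5.77% of the 75th percentile in sham and 9.36% to 11.8% in LPS kidneys, and all sham values lay above the floor of -4.68 set for undetected signal. The group means were -4.29 ± 0.13 and -3.20 ± 0.15 (SD, n = 4 per group). The difference was 1.09 ± 0.09 log2 units (SE, 95% interval 0.87 to 1.30), or 2.12-fold (1.83 to 2.46), and passed limma's test with a Benjamini-Hochberg adjusted p of 8.79e-05. Only 2 of 4 sham arrays measured it, and its size is not exact for that reason.

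**Figure D1:**
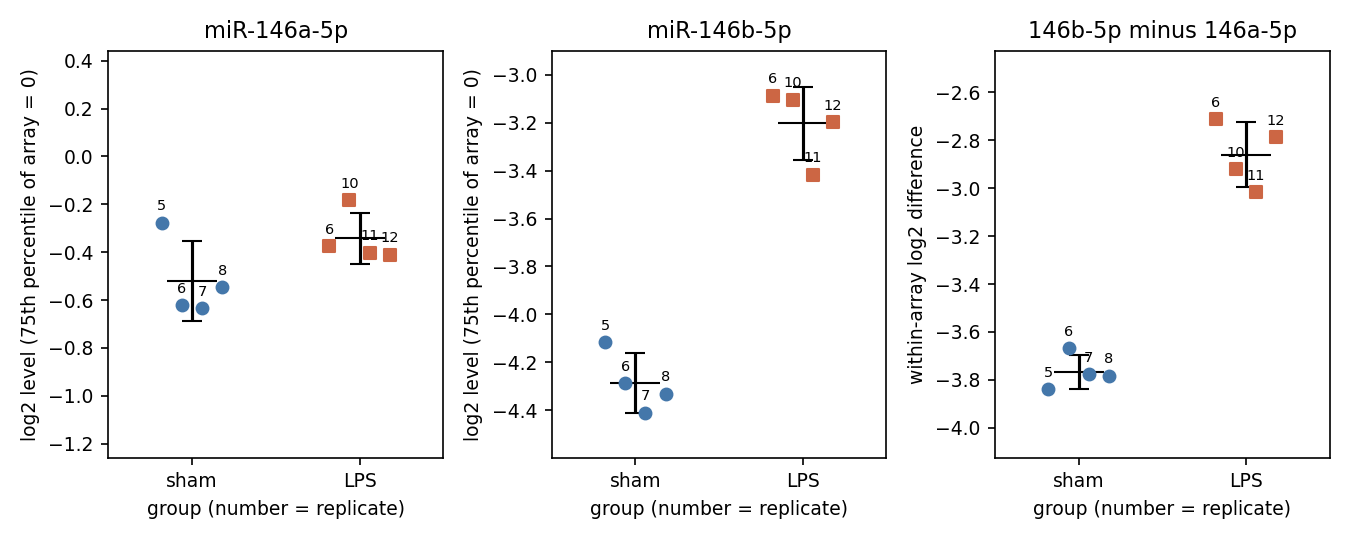
Log2 levels of miR-146a-5p and miR-146b-5p and their difference within each array (y axes, log2 units; separate ranges of equal span), by group, with points numbered by replicate, a horizontal bar for the mean and error bars for SD (n = 4). The groups overlap for miR-146a-5p, where sham replicate 5 sits at -0.28, and are separate for miR-146b-5p and for the difference.

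The paralogs changed unequally. Within each array the log2 level of miR-146b-5p minus that of miR-146a-5p was -3.84, -3.67, -3.78 and -3.78 in sham replicates 5 to 8. It was -2.71, -2.92, -3.02 and -2.79 in LPS replicates 6, 10, 11 and 12. All 4 LPS arrays lay above all 4 sham arrays, and a scaling factor of the array cancels in this quantity. The means were -3.77 ± 0.07 and -2.86 ± 0.14 (SD, n = 4 per group), a difference of 0.91 ± 0.08 (SE). A 2-sided exact permutation test gave p = 0.0286, which is the smallest p that 4 against 4 arrays allow. The LPS to sham fold of miR-146b-5p was thus 1.88 times that of miR-146a-5p at these settings. On the deposited background the unequal change was 0.30 log2 units with the floor doubled and 0.40 with the logs of the probes averaged, without overlap in either (2-sided exact permutation p = 0.0286). With the floor doubled all sham values of miR-146b-5p lay at the floor, so the sham spread is that of miR-146a-5p alone. With the logs averaged the 18-base miR-146b probe lay at its floor on every array, which by construction shrinks the change. Neither is a separate observation of the unequal change. With normexp background correction and an offset of 50 the unequal change was 0.077 and did not pass (2-sided exact permutation p = 0.314). Without the offset it was 0.38 and the arrays again did not overlap (exact permutation p = 0.0286).

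The probes were compared one by one, in mean background-subtracted intensity before scaling. Of 633 single probes tested, 246 (38.9%) passed limma's test, 90 (14.2%) higher and 156 (24.6%) lower in LPS kidneys. The 19-base miR-146b probe, which supplied most of the signal of that miRNA, had intensities of 21.9, 19.4, 18.2 and 18.9 on sham replicates 5 to 8. On LPS replicates 6, 10, 11 and 12 they were 49.4, 50.3, 39.1 and 44.1. The dimmest LPS array was brighter than the brightest sham array. Before scaling the mean log2 75th-percentile signal was 9.01 on LPS and 8.94 on sham arrays, but the scaled levels of the probe did not overlap either. Every LPS array lay above every sham array for 12.1% of tested miRNAs, a share not counted for single probes. The scaled log2 level of the 19-base probe was higher in LPS kidneys by 1.14 ± 0.11 (SE, 95% interval 0.90 to 1.38, limma, Benjamini-Hochberg adjusted p = 1.17e-04). Its size is not exact, since 2 of 4 sham arrays detected the probe: it was 0.32 with normexp and an offset of 50, 0.70 with normexp alone and 0.34 with the floor doubled, and passed the test in each. With the floor doubled all sham values of the probe lay at the floor, so that fit holds no sham variation. The probe was tested only because all LPS arrays detected it, which preselects it for a rise. At the level of single spots, those of the sham arrays spanned 11.7 to 30.8 with a median of 19.8, and those of the LPS arrays 31.0 to 60.3 with a median of 45.3. None of the 59 used sham spots reached the dimmest of the 59 used LPS spots. Spots of an array share its RNA and are not replicates. Of the sham spots 32 of 59 were well above background, between 5 and 12 per array, against 59 of 59 LPS spots.

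The 18-base miR-146b probe was dimmer, at 5.88, 4.68, 5.76 and 5.99 on the sham arrays and 10.6, 12.3, 10.2 and 9.78 on the LPS arrays, in the same replicate order. Its array means did not overlap between groups, but 0 of 60 sham spots and 1 of 58 LPS spots were well above background. It was therefore not tested alone, and no fold is given for it. The 19-base probe held 75.9% to 80.5% of the summed signal of miR-146b-5p in sham kidneys and 79.2% to 82.3% in LPS kidneys.

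The miR-146a probes were both above background on every array, and moved alike. The 19-base probe had intensities of 305, 231, 252 and 259 on sham replicates 5 to 8 and 299, 363, 308 and 280 on LPS replicates 6, 10, 11 and 12. The 18-base probe had 92.7, 74.8, 76.3 and 83.1 on the sham arrays and 94.3, 111, 91.6 and 91.6 on the LPS arrays. Sham replicate 5 was the brightest sham array on both, within the range of the LPS arrays. The scaled log2 differences were 0.18 ± 0.10 (SE, limma adjusted p = 0.174) and 0.17 ± 0.09 (adjusted p = 0.161), and neither passed. Without sham replicate 5 they were 0.28 (adjusted p = 0.0202) and 0.26 (adjusted p = 0.0283), and both passed. With the scaling percentile taken over all probes, the 18-base probe alone passed, at 0.23 (limma adjusted p = 0.0445). The 19-base probe held 75.5% to 76.8% of the summed signal in sham kidneys and 75.4% to 77.1% in LPS kidneys, and the log2 ratio of the probes changed by 0.008 between groups (2-sided exact permutation p = 0.83). For miR-146b the same ratio was 1.82 ± 0.19 in sham and 2.09 ± 0.13 in LPS kidneys (SD, n = 4 per group; overlapping, 2-sided exact permutation p = 0.0857). No spot of any of these probes was saturated.

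**Figure D2:**
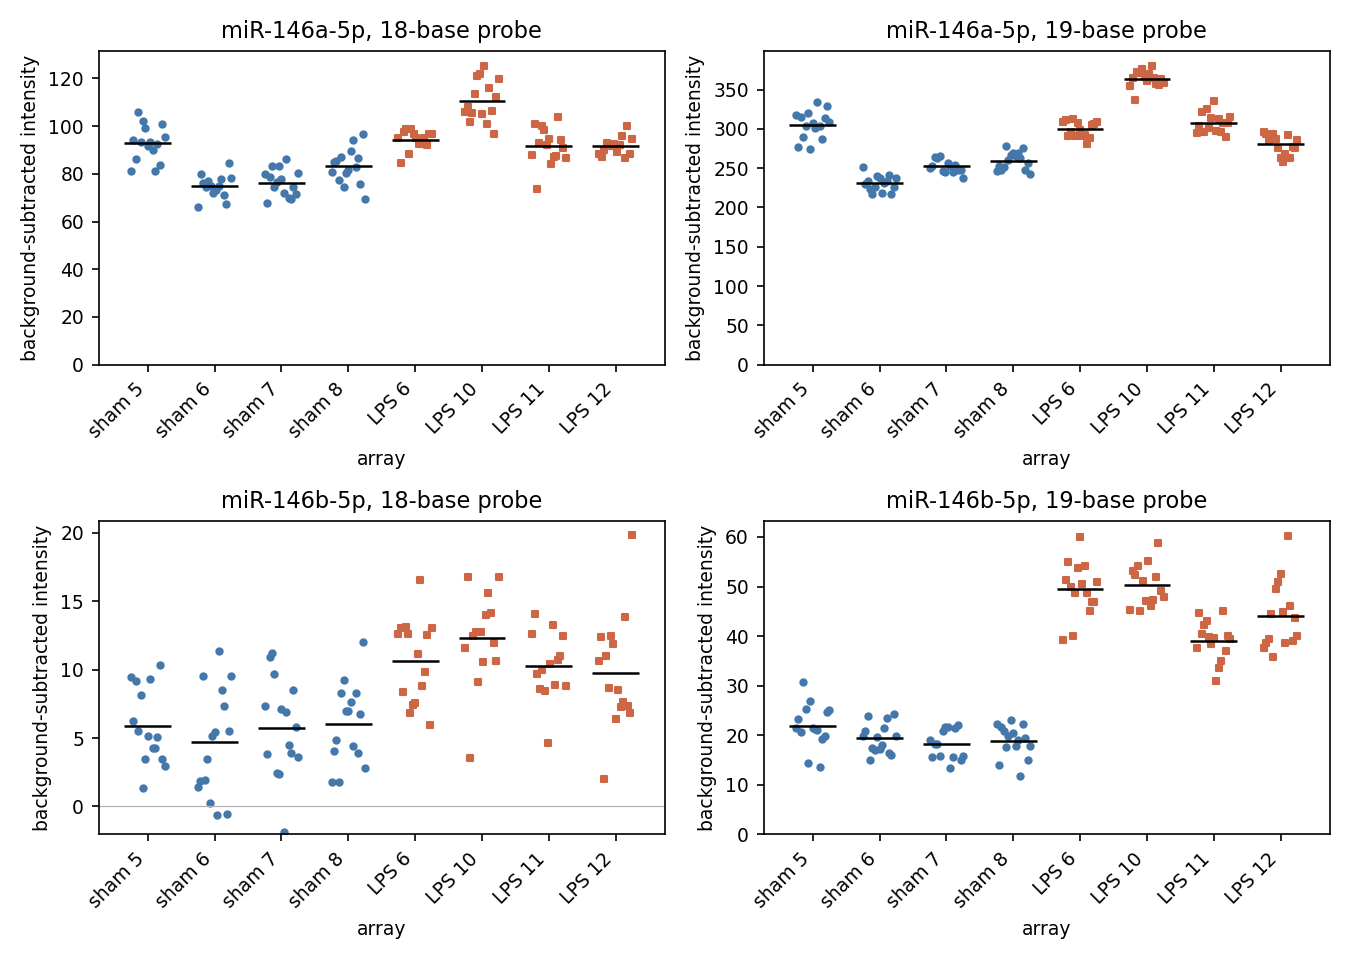
Background-subtracted intensity (y axis, arbitrary scanner units, linear, a separate range per panel) of every used spot of the probes of miR-146a-5p and miR-146b-5p on each array (x axis), with sham spots as circles, LPS spots as squares and a bar at the mean of each array. For the 19-base miR-146b probe the sham spots end at 30.8 and the LPS spots begin at 31.0; spots of the other probes overlap between groups.

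The hairpins from RefSeq show where the opposite arms lie, with both mature arms in capitals.
Mir146: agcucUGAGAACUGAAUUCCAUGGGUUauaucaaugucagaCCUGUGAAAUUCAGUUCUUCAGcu
Mir146b: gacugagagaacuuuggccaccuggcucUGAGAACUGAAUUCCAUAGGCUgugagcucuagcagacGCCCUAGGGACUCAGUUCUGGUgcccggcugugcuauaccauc
The 3p arms, unlike the 5p arms, start with different bases and do not share a seed. MiR-146a-3p has 2 probes and miR-146b-3p has 4, of 14 to 17 bases. For both arms 0 spots were well above background on any array, so they were not tested. Whether the 3p arms changed was not measurable at this signal.

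Among the 338 miRNAs tested, miR-146b-5p ranked 14 by difference, from the highest rise down, and 8 by p-value. It was 1 of 19 miRNAs (5.62%) that passed the test with a rise of at least 1 log2 unit. MiR-146b-5p met the detection filter only through the LPS group, where it is higher (4 LPS and 2 sham arrays detected). A miRNA admitted in that way is preselected for a rise, so its call, these ranks and this count are partly set by the filter. MiR-146a-5p ranked 70 by difference and 192 by p-value. The median difference of all tested miRNAs was -0.08. Relative to that median miR-146a-5p was 0.26 higher and miR-146b-5p 1.17 higher, which the other scalings by 1 factor per array leave as they are.

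**Figure D3:**
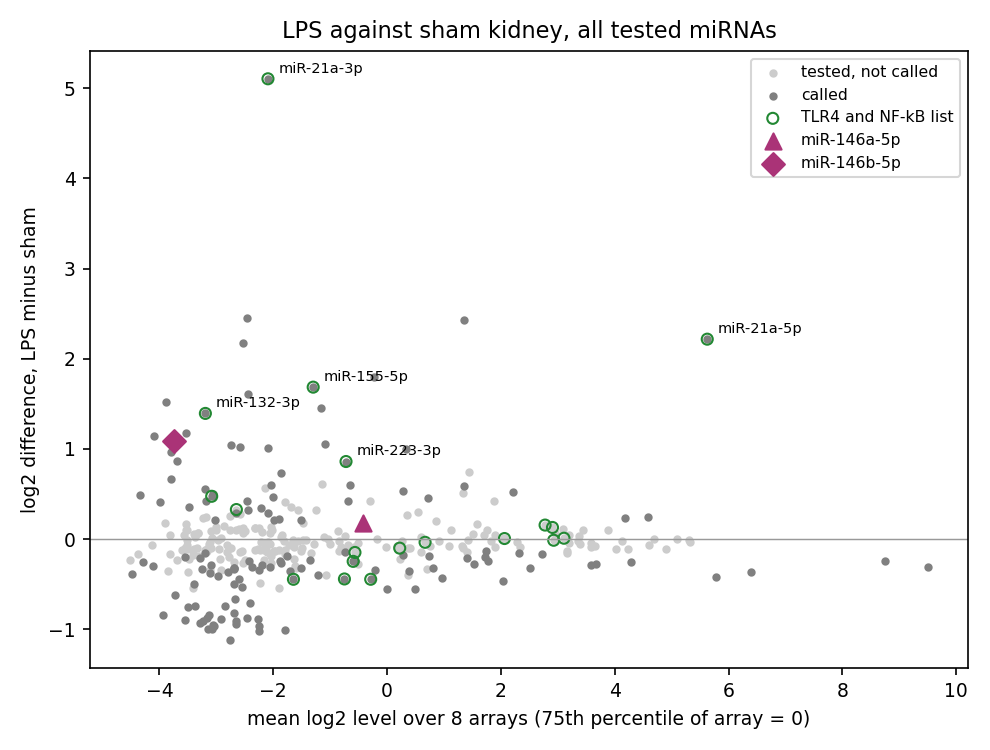
Difference between LPS and sham (y axis, log2 units) against mean log2 level over the 8 arrays (x axis) for the 338 miRNAs tested, with called miRNAs in dark grey, the TLR4 and NF-kB list ringed in green, and miR-146a-5p (triangle) and miR-146b-5p (diamond) marked. MiR-146b-5p lies among the dim miRNAs at a difference of 1.09 and miR-146a-5p near 0 at 0.18; the value of miR-21a-3p is fitted against sham arrays at or near the floor.

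The call of miR-146b-5p held in 26 of the 26 alternatives that gave it a value, with adjusted p from 2.15e-05 to 0.00947 (limma), but its size did not. These calls share its selection by the filter, except where detection on any array sufficed. With the floor doubled all its sham values lay at the floor, so that fit holds no sham variation. The difference of miR-146b-5p was 0.20 with normexp and an offset of 50, 0.54 with normexp alone, 0.47 with the floor doubled and 0.57 with the logs of its probes averaged. It reached 1.26 in the authors' deposited ratio table, where its ratios were 0.748, 0.687, 0.643 and 0.625 on sham replicates 5 to 8 and 1.61, 2.03, 1.34 and 1.53 on LPS replicates 6, 10, 11 and 12. The groups were separate there too. MiR-146a-5p was positive in 27 of 27 alternatives and called in 1, the one without sham replicate 5. Among the scalings it ranged from 0.03 with labelling spike-ins (limma adjusted p = 0.799) to 0.25 without scaling. The spike-ins dmr_285 and dmr_31a were themselves 0.33 and 0.11 log2 units brighter on the LPS arrays, and each was brighter on every LPS than on every sham array. Its deposited ratios were 1.05, 0.841, 0.901 and 0.880 on the sham arrays and 0.996, 1.19, 1.06 and 1.0 on the LPS arrays, again with sham replicate 5 inside the LPS range.

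**Figure D4:**
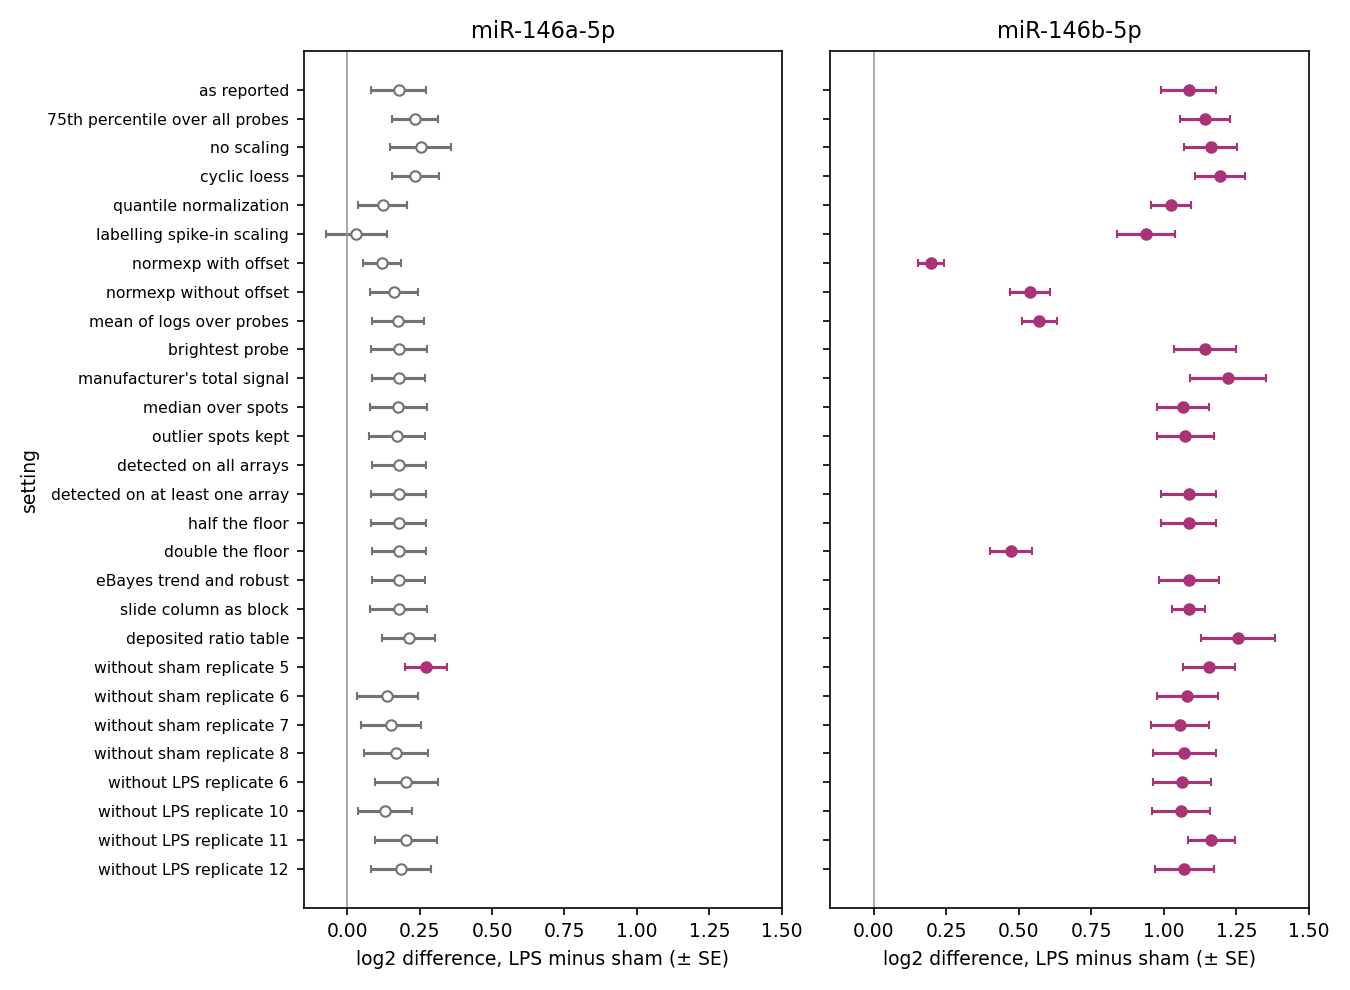
LPS minus sham difference (x axis, log2 units, error bars SE) of miR-146a-5p and miR-146b-5p under each processing setting (y axis), filled where limma's adjusted p was below 0.05 and open otherwise; miR-146b-5p has no value where detection on all arrays was required. MiR-146b-5p ranges from 0.20 to 1.26 and is filled throughout, and miR-146a-5p is filled only without sham replicate 5.

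Other miRNAs tied to TLR4 and NF-kB signalling were read from a list of 24, of which 19 were tested. Of these 10 passed, 6 higher and 4 lower, beside 40.2% called, 14.8% higher and 25.4% lower among all tested miRNAs. Their median difference was 0.01 against -0.08 for all tested miRNAs. The list joins 14 miRNAs described as induced by the pathway and 10 described as targeting its components. Of the induced miRNAs 10 were tested, 6 passed higher and 1 lower (14.8% and 25.4% over all tested miRNAs), and their median was 0.67. Among the risers miR-21a-3p and miR-132-3p were detected on 0 and 2 sham arrays and on all 4 LPS arrays. The filter thus admitted them only through the group where they are higher, which preselects them for a rise. With detection required on all arrays, 17 members of the whole list were tested, 4 passing higher and 4 lower. Of the targeting miRNAs 9 were tested, 0 passed higher and 3 lower, and their median was -0.10. The 3 falls are near the share of 25.4% that fell over all tested miRNAs.

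The induced miRNAs that rose more than miR-146b-5p were led by miR-21a, which is known for its rise in injured kidney. MiR-21a-5p rose by 2.22 ± 0.08 log2 units (SE, limma adjusted p = 1.95e-07). MiR-21a-3p stayed below background in all sham kidneys, and LPS kidneys had at least 17.6-fold more signal on its brightest probe (limma adjusted p = 4.16e-11 for the summed probes). Its sham values lay at or near the floor, so that p reflects sham variation only in part. MiR-155-5p, which TLR ligands induce in macrophages, had sham levels of -2.29, -1.99, -2.20 and -2.09 and LPS levels of -0.58, -0.35, -0.41 and -0.48. This separation is a rise of 1.68 ± 0.08 (SE, limma adjusted p = 2.25e-06). MiR-132-3p rose by 1.39 ± 0.12 (limma adjusted p = 7.30e-05), not an exact size since 2 of 4 sham arrays detected it, while miR-212-3p, made from the same gene cluster, fell by 0.45 ± 0.07 (adjusted p = 0.00166). MiR-223-3p, a miRNA of neutrophils and other myeloid cells, rose by 0.86 ± 0.09 (adjusted p = 3.03e-04). The calls of these 6 held in every alternative that tested them, at other sizes for the dim ones: with normexp and an offset of 50 the differences were 0.99 for miR-155-5p, 0.37 for miR-132-3p and 1.70 for miR-21a-3p. The fitted difference of miR-21a-3p was 2.83 with the logs of its probes averaged and 8.79 from the authors' deposited ratio table, so its bound holds for the background subtraction as deposited. The sixth riser was miR-9-3p at 0.47 (limma adjusted p = 0.0465), which overlapped between groups and lost its call in 16 of 27 alternatives (limma adjusted p up to 0.145), among them leaving out any 1 array other than LPS replicate 6. Among the targeting miRNAs, miR-145a-5p, miR-181b-5p and miR-199a-5p fell by 0.44, 0.45 and 0.25. MiR-199a-5p lost its call in 11 of 27 alternatives (limma adjusted p up to 0.175), among them leaving out any 1 array other than sham replicate 8 or LPS replicate 10. These last 4 are named after their values were seen.

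Markers of other cells were set beside the paralogs because leukocytes express both. Of 6 leukocyte miRNAs tested, 2 passed higher (miR-155-5p and miR-223-3p) and 0 lower, beside 14.8% and 25.4% of all tested miRNAs, with a median difference of 0.20. Their summed level was 1.18 to 1.64 in sham and 1.79 to 1.89 in LPS kidneys, without overlap, as for 37.0% of single miRNAs tested. MiR-155-5p and miR-223-3p, which are also on the list of induced miRNAs, did not overlap between groups. Each of the other leukocyte miRNAs did overlap, so the summed level does not show a rise of all these markers. MiR-142a-3p, a pan-leukocyte miRNA, was 0.64 in sham replicate 5, from -0.01 to 0.16 in the other sham arrays and from 0.33 to 0.58 in the LPS arrays. The sham array highest in miR-146a-5p was thus also the highest in this marker, and miR-142a-5p was highest there of all 8 arrays, at -1.88. Sham replicate 5 was also the highest sham array for miR-146b-5p, at -4.12, and for miR-223-3p, miR-150-5p and miR-342-3p. MiR-155-5p went the other way there and was the lowest of all 8 arrays, at -2.29. MiR-142a-3p differed by 0.26 ± 0.14 (SE) and did not pass (limma adjusted p = 0.171). The lymphocyte-rich miR-150-5p and miR-342-3p differed by -0.22 and -0.01 and did not pass (limma adjusted p = 0.126 and 0.933). No defining leukocyte marker was below background on any array. The part of leukocytes in the miR-146 values was not tested.

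**Figure D5:**
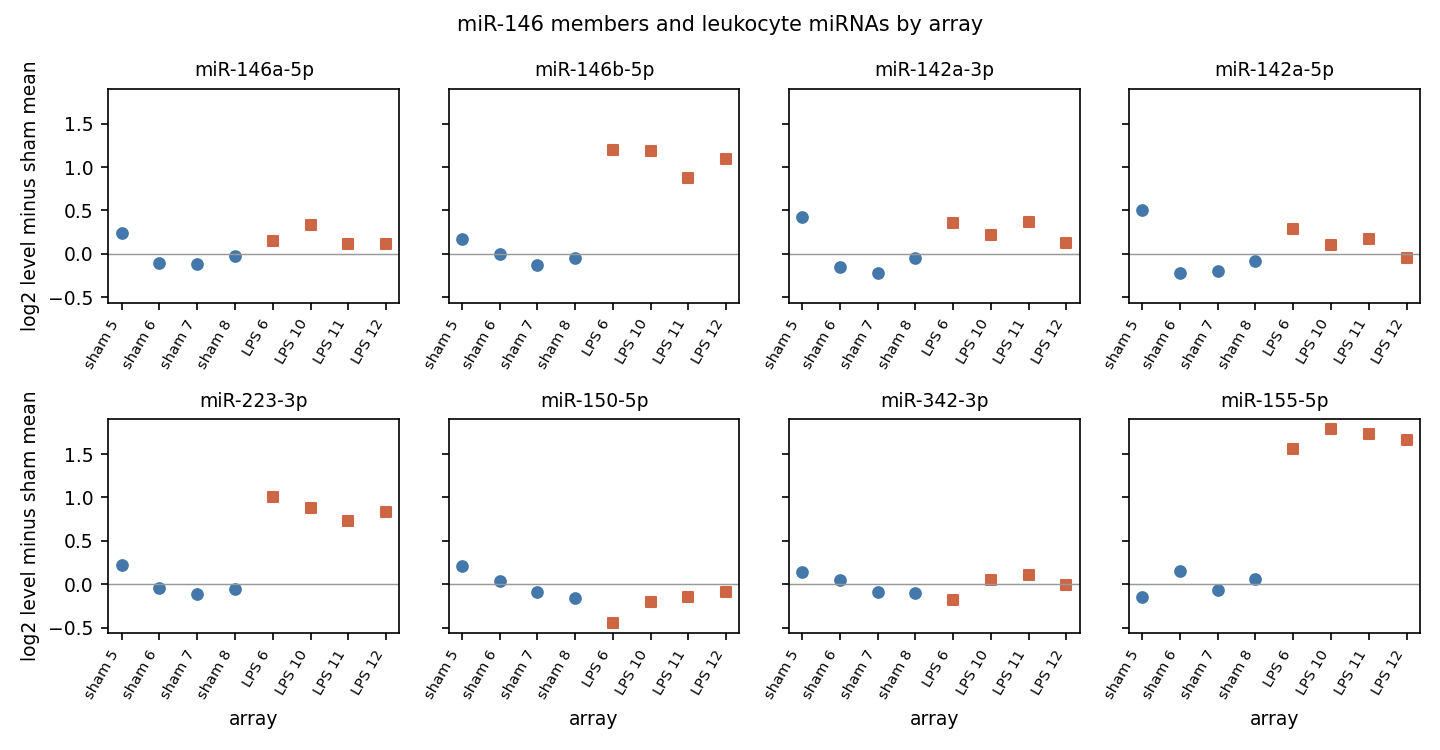
Log2 level of each paralog and each leukocyte marker minus its own sham mean (y axes, log2 units) on each array (x axes, sham and LPS replicates). Sham replicate 5 is the highest sham array for both paralogs and for each leukocyte marker except miR-155-5p, where it is the lowest. MiR-155-5p and miR-223-3p are separate between groups.

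Other cells were read in the same way. Of 7 miRNAs of kidney tubule, which dominates the tissue, all were detected on every array, 0 passed higher and 3 lower, namely miR-192-5p, miR-194-5p and miR-204-5p, beside 25.4% lower among all tested miRNAs. These calls were lost in 8, 1 and 12 of 27 alternatives. For miR-192-5p they include leaving out sham replicate 7 or 8 or LPS replicate 11 or 12, and for miR-204-5p leaving out any 1 array other than LPS replicate 10. The level of miR-30a-5p in sham kidneys was 4.95. The endothelial miR-126a-3p differed by -0.02. Red cell miRNAs varied most within a group: 2 of 2 tested passed higher, beside 14.8% of all tested miRNAs. Their summed level was -0.86 to 1.66 in sham and 1.04 to 3.79 in LPS kidneys, with overlap. MiR-144-3p was detected on 2 sham and 4 LPS arrays, so the filter admitted it only through the group where it is higher. The third listed marker, miR-486a-5p, was detected on 0 sham and 2 LPS arrays and was not tested. Leaving out any 1 of sham replicates 6 and 7 and LPS replicates 6 and 11 ended both calls (miR-451a and miR-144-3p), and leaving out LPS replicate 12 ended the call of miR-451a. The part of blood in the miR-146 values was not tested. Of the smooth muscle and stroma list 4 of 4 were tested, 0 passed higher and 2 lower, beside 14.8% and 25.4% of all tested miRNAs. The 2 are miR-145a-5p and miR-199a-5p, which are also on the TLR4 and NF-kB list, and miR-199a-5p lost its call in 11 of 27 alternatives. The summed level of this list was 2.00 to 2.25 in sham and 2.01 to 2.17 in LPS kidneys. The liver marker miR-122-5p was not detected on any array. Of 2 striated muscle markers miR-133a-3p was not detected on any array, while miR-1a-3p was detected on all 8 and differed by 0.13 (limma adjusted p = 0.415). Of 2 neuronal markers miR-124-3p was not detected on any array, while miR-9-5p was detected on all 8 and differed by 0.33 (limma adjusted p = 0.173).

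The miRNAs most like each paralog were ranked by Pearson correlation of deviations from the group means over the 8 arrays, among 327 candidates. The points share arrays and scaling, and with so many candidates high values arise readily, so the coefficients are a description. MiR-146a-5p varied most like miR-497a-5p (0.918), miR-690 (0.915), miR-1892 (0.910), miR-706 (0.902) and miR-222-3p (0.896). Its coefficient was 0.739 with miR-142a-3p, 0.771 with miR-142a-5p, 0.732 with miR-223-3p, 0.436 with miR-150-5p, 0.509 with miR-342-3p and -0.270 with miR-155-5p. MiR-146b-5p varied most like miR-204-5p (0.974), miR-6412 (0.947), miR-223-3p (0.908), miR-5112 (0.898) and miR-6995-5p (0.891). Its coefficient was 0.460 with miR-142a-3p, 0.550 with miR-142a-5p, 0.105 with miR-150-5p, 0.022 with miR-342-3p and -0.343 with miR-155-5p. The paralogs had a coefficient of 0.699 with each other, and only miR-223-3p among the nearest miRNAs of either is on the leukocyte list. MiR-204-5p, the nearest to miR-146b-5p, is on the kidney tubule list.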

How the data were processed

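The authors deposited 1 scanner output per array, which holds spot intensities. Per the file headers these are background-subtracted with spatial detrending and not scaled between arrays, and Agilent Feature Extraction 12.0.3.1 is named in the submitters' processing notes. A linear ratio per miRNA and array was also deposited by the authors. It serves as an alternative, and how its arrays were scaled is not stated in the sources used here. Outlier spots were left out and spots of a probe averaged (56430 non-control spots, 4415 probes). Signals were scaled to the array's 75th percentile, taken over 551 probes well above background throughout. Probes of a miRNA were summed, floored at -4.68 (-4.85 for single probes) and log2-transformed, and 0.851% of tested values were at the floor. Tested miRNAs had to be detected on all 4 arrays of the sham group, the LPS group or both.

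LPS arrays were tested against sham arrays by lmFit and eBayes of limma 3.58.1 (R 4.3.3, 2-sided, no covariates), with p-values adjusted over all 338 miRNAs or 633 probes by Benjamini-Hochberg at 0.05. Confidence intervals are 95%. Single values used 2-sided exact permutation tests. Where a group was below background throughout, the brightest probe is bounded, on log2 means, by the higher of its own signal and the lowest signal well above background on each array. The fit was tested on simulated data. Named list members are the 6 called ones with the smallest p. The members and lists were chosen with earlier results of these data known. Alternatives covered scaling, background, probe summary, filter, floor, variance model, slide column, the ratio table and leaving out each array. Normexp without an offset was added after seeing the data. The number of arrays limits the precision.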

Additional observations from a re-analysis of the deposited data

Results flagged for a closer look

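In 34 groups of 4 arrays, Dixon's gap test flagged 3 values as apart from the other 3 of their group. Chance gives about 1.70 for independent groups, which these are not. LPS replicate 10 stood apart in miR-146a-5p, at a log2 level of -0.18, and in the intensity of the 18-base miR-146a probe, at 111. That probe is part of the miRNA's sum, so these flags are not separate observations. Sham replicate 8 stood apart in miR-21a-3p at -4.56, next to other sham arrays that all lay at the floor, where any value off the floor would be flagged. These values are given without explanation.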

How the results depend on the processing

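The direction of both paralogs was positive under every alternative that gave a value, 27 for miR-146a-5p and 26 for miR-146b-5p. Leaving out 1 array at a time gave 0.13 to 0.27 log2 units for miR-146a-5p, 0.13 to 0.28 for its 19-base probe and 0.13 to 0.26 for its 18-base probe, each called only without sham replicate 5, and 1.06 to 1.16 for miR-146b-5p, called throughout. The 18-base miR-146a probe passed (0.23) with the percentile over all probes. The unequal change of the paralogs was 0.86 to 0.96 with 1 array left out and 0.077 to 1.04 over the settings, and was lost with normexp and an offset of 50 (0.077). That offset is added to every signal, which by construction shrinks log2 differences of dim miRNAs. Normexp without an offset gave an unequal change of 0.38, also below the 0.91 of the reported setting. The count of called miRNAs was 80 (35 higher, 45 lower) with slide column as a block, against 136, and 94 to 148 with 1 array left out. The split into higher and lower was 55 and 53 with the percentile over all probes, 57 and 49 without scaling, 65 and 66 with cyclic loess, and 34 and 152 with spike-in scaling, which moved the median of all miRNAs to -0.23. The count of called TLR4 and NF-kB list members was 8 to 11. Requiring detection on all arrays leaves miR-146b-5p without a value. No paired analysis was possible because the groups share only 1 replicate number, and slide column pairs positions on the slide, not samples. Signal over background limits miR-146b-5p in sham kidneys and both 3p arms.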
